A study of Rattus norvegicus with 19 samples.

Results

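The interferon response genes described here are Trim30d, Ifi44, Irf7, Irf1, Stat2, Mx1, Mx2, Usp18 and Ifitm3. They were taken as all probe sets whose platform annotation gave a single symbol among these names, which made 11 probe sets of 9 genes, out of 31042 probe sets and 14217 genes on the array. Stat2 and Mx2 had 2 probe sets each and the other genes had 1. The genes were selected on measured values: Trim30d was chosen by its strain difference in the supraoptic nucleus (SON) and the others as members of the response whose genes were seen to shift in the same comparison. The SON strain difference is therefore given for these genes as a description with no test.

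RNA came from the SON and the paraventricular nucleus (PVN) of the spontaneously hypertensive rat (SHR) and of its normotensive relative, the Wistar Kyoto rat (WKY). Both strains were inbred, the rats were male, untreated and labelled as 12 weeks old, and each sample was made from pooled nuclei. There were 4 arrays of SON SHR, 5 of SON WKY, 5 of PVN SHR and 5 of PVN WKY. Values are MAS 5.0 signals, the array software's brightness of a probe set, on a linear scale after each array was brought to a common median, and differences are on the log2 scale. Array medians as deposited ranged from 35.9 to 46.5, and array numbers are used as names only, since the labels give no pairing. Whether arrays of a group came from separate rats is not given in the labels, so p-values measure the spread between these arrays.

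Interferons are signalling proteins that cells release on sensing viral nucleic acid. They act through receptors and Janus kinases on STAT proteins and interferon regulatory factors, which enter the nucleus and bind short elements in the promoters of the interferon-stimulated genes, called the interferon-stimulated response element (ISRE) and the gamma-activated site (GAS). In brain, such genes are read at a low level in neurones, glia and vessel cells without infection, and some of their products block virus entry or replication while others damp the signal.

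Promoters of these genes were searched because these elements are where the pathway meets its targets, and the windows that held a match are printed. Windows of 250 bases before to 50 bases after the annotated start were taken from RefSeq on the GRCr8 build, and 7 of the 9 genes had one. Mx2 and Usp18 are named only. The patterns searched, on both strands, were an ISRE-like pattern, GAAA and GAAA with any 2 bases between them, which 3.92% of 33469 rat promoters of this length held, and a GAS-like pattern, TTC and GAA with any 3 bases between them, which 8.87% held. ISRE-like matches were found in 3 of the 7 windows (Ifi44, Irf7 and Ifitm3) and GAS-like matches in 2 (Irf1 and Ifitm3). Capitals mark the matches below, each window is written 5′ to 3′ on the gene's own strand, and a match is a run of letters, not evidence of binding.

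Ifi44 (chr2:243303791-243304090, minus strand, 2 ISRE-like matches, the first 26 bases before the start): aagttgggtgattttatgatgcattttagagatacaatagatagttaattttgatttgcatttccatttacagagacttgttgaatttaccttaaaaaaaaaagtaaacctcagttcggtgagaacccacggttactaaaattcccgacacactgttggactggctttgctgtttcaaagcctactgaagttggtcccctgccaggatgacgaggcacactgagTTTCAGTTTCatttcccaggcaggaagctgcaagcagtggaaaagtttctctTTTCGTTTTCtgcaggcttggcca

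Ifitm3 (chr1:205541709-205542008, minus strand, 1 ISRE-like match 44 bases and 1 GAS-like match 33 bases before the start, sharing no base): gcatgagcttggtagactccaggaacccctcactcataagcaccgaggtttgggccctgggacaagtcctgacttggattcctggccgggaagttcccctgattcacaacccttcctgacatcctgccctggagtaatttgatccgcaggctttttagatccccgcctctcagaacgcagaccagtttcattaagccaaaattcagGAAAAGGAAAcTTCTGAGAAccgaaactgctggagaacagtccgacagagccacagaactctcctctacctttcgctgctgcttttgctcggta

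Irf7 (chr1:205799974-205800273, minus strand, 1 ISRE-like match 69 bases before the start): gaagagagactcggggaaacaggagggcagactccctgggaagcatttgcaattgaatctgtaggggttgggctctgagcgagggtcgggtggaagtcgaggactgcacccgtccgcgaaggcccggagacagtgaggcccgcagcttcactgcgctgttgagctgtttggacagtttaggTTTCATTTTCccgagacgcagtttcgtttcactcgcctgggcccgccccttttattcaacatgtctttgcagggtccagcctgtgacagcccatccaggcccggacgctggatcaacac

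Irf1 (chr10:38417685-38417984, plus strand, 1 GAS-like match 142 bases before the start): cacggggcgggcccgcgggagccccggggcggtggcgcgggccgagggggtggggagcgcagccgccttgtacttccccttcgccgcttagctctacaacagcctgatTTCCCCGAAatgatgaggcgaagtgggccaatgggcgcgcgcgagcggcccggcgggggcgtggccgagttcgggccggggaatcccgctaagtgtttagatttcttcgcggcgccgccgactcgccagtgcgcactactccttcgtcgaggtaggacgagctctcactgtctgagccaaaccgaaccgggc

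No match to these letters lay in the windows of Trim30d, Stat2 or Mx1, which says nothing of elements placed elsewhere.

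Some facts of the libraries touch every result. The transcripts of magnocellular neurones, Avp for vasopressin and Oxt for oxytocin, had mean log2 signals of 11.91 or more in every group. Corticotropin-releasing hormone (Crh), a marker of the PVN, averaged 4.08 in SON SHR and 5.08 in SON WKY, against 8.75 in PVN SHR and 9.14 in PVN WKY. Genes of the meninges, the sheath that the SON lies against, separated the nuclei: the mean log2 signal of 8 such genes lay between 8.0 and 9.28 in SON SHR, between 7.54 and 8.16 in SON WKY, between 4.88 and 5.26 in PVN SHR and between 4.95 and 5.05 in PVN WKY. None of 8 measured lymphocyte genes reached the filter on low signals, and their array means stayed between 2.87 and 3.72, where the floor is 1.91. SON SHR array 1 stood apart, as the highest of its group in 10 of the 11 probe sets and also in its marker means of microglia, perivascular macrophages, endothelium, meninges and astrocytes. It was the highest as well in those of lymphocytes, choroid plexus and magnocellular neurones, and array 2 in those of red cells, oligodendrocytes and neurones at large. In such pieces of tissue, fewer cells of a type and less RNA per cell cannot be told apart.

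**Figure D1:**
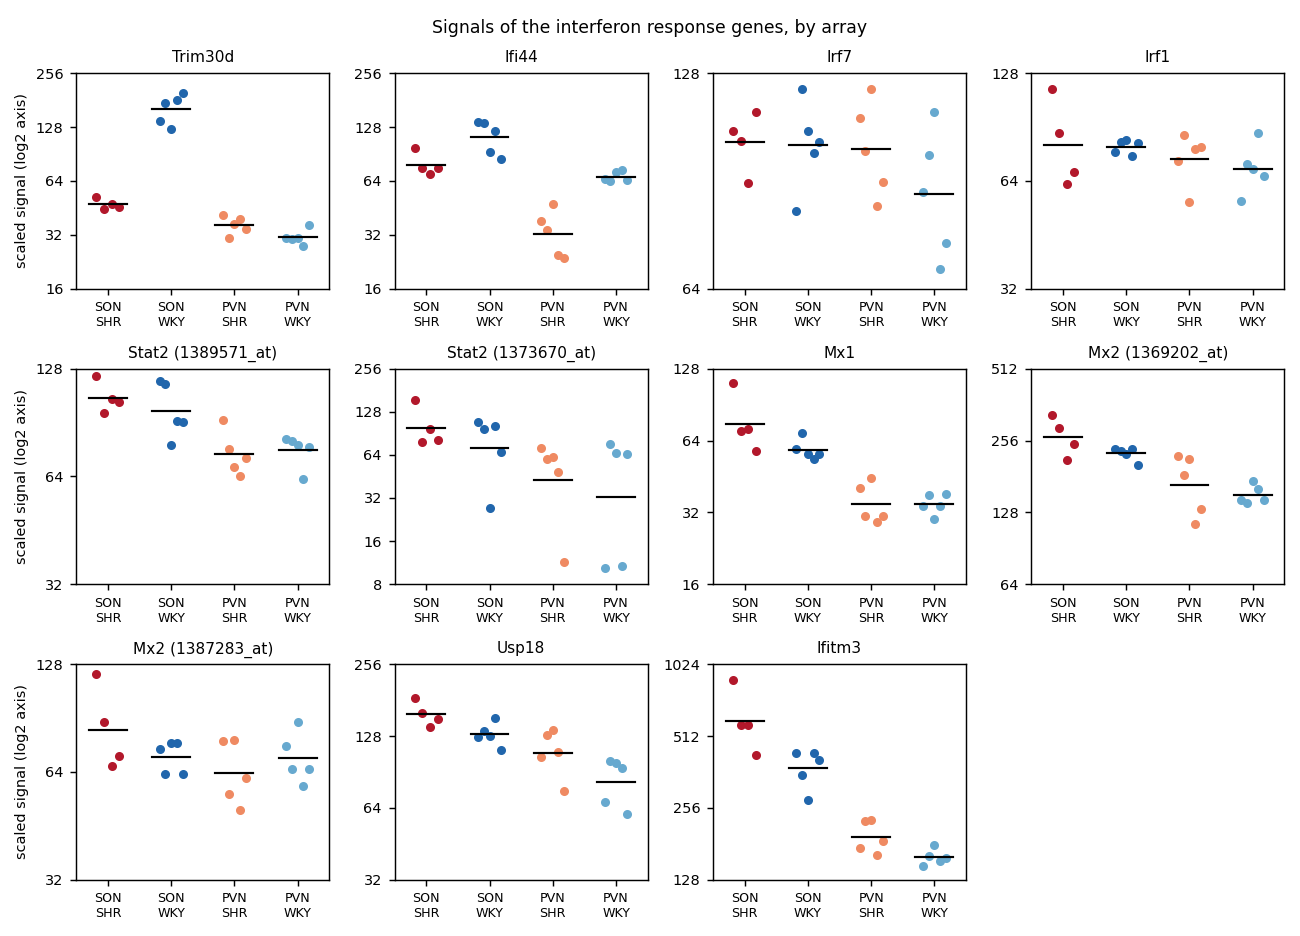
Scaled MAS 5.0 signal (log2 axis) of the 11 probe sets in SON SHR, SON WKY, PVN SHR and PVN WKY; each point is an array and each line the mean of the log2 signals. Trim30d stood between 124 and 199 in SON WKY and at 52.2 or less in every other array, and Ifi44 was lower in all 5 PVN SHR arrays than in the 5 PVN WKY arrays.

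Trim30d belongs to the tripartite motif proteins, a large family with many ubiquitin ligases. A relative in mice, Trim30a, is induced by innate immune signals and damps them. The signals of Trim30d were 52.2, 44.5, 47.5 and 45.9 in SON SHR, against 138, 175, 124, 181 and 199 in SON WKY. In the PVN they were 41.1, 30.9, 36.6, 39.2 and 34.5 in SHR, against 30.7, 30.1, 30.8, 27.9 and 36.2 in WKY. The high level was thus found in the 5 SON WKY arrays alone, and the strains did not overlap in the SON while they did in the PVN. The SON difference, which chose the gene, was -1.76 on the log2 scale, a signal 3.40-fold lower in SHR. In the PVN the difference was 0.23, and no test was made because neither strain reached the filter, a mean log2 signal of 5.32.

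Mean log2 signals of Trim30d were 5.57 ± 0.10 in SON SHR (SD, n = 4), 7.33 ± 0.29 in SON WKY, 5.18 ± 0.16 in PVN SHR and 4.96 ± 0.14 in PVN WKY (SD, n = 5 each). The order from the highest was SON WKY, SON SHR, PVN SHR and PVN WKY. Only PVN SHR and PVN WKY overlapped among neighbours in that order. The excess of the SON over the PVN was 0.39 in SHR and 2.38, or 5.19-fold, in WKY. Both are descriptions, since they share the SON arrays with the choice of the gene. SON WKY array 3, which correlated least with its own group (mean r 0.929), had the lowest of the high values, and without it the SON strain difference was -1.86.

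On chromosome 1 Trim30d lies in a cluster of related Trim genes, 3 of which the array measured beside it. Trim5, which restricts retroviruses, had a SON strain difference of 0.14. Trim34 differed by 0.28 and Trim6, at low signal, by -0.14. All 3 overlapped between the strains in both nuclei, so the separation of the strains by Trim30d in the SON was not seen in its measured neighbours. These paralogs resemble each other, and the files do not say how far a probe set of one could bind another.

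The genes whose signals ran most like that of Trim30d over the 19 arrays, of 12997 candidate probe sets, were Ucn (r = 0.964), Nmb (0.960), Tpd52l1 (0.949), Cidea (0.949) and Nampt (0.912). Ucn encodes the stress peptide urocortin, Nmb neuromedin B, Cidea a lipid droplet protein and Nampt an enzyme of NAD synthesis. Each had its highest group mean in SON WKY and its next in SON SHR, an order that ranking by likeness to Trim30d favours. Ucn, for example, ranged from 35.2 to 59.2 in SON SHR, from 142 to 191 in SON WKY, from 21.1 to 31.8 in PVN SHR and from 20.8 to 32.5 in PVN WKY. Once each group's mean was removed, the correlation with Trim30d was 0.12 for Ucn, 0.39 for Nmb, 0.00 for Tpd52l1, 0.01 for Cidea and 0.11 for Nampt, so the likeness was that of the 4 group levels. None of the 5 belongs to the interferon lists.

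**Figure D2:**
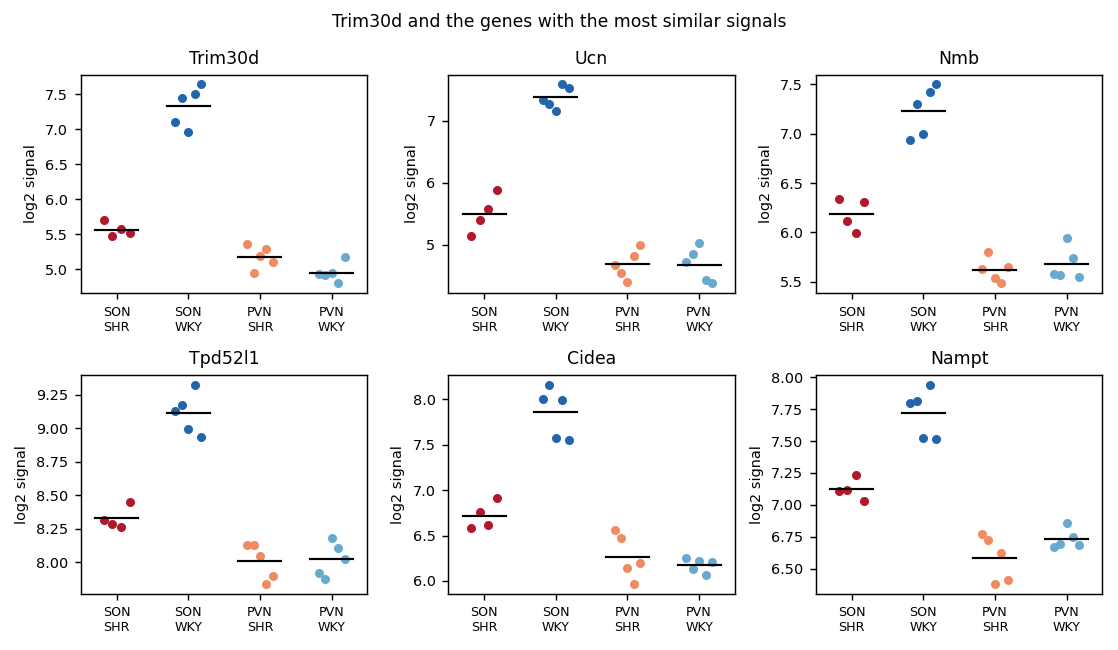
Log2 signal of Trim30d and of the 5 genes most like it in SON SHR, SON WKY, PVN SHR and PVN WKY; points are arrays and lines group means. In all 6 panels SON WKY is the highest group, with means between 7.23 and 9.11, and the 5 genes were picked for this likeness.

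Ifi44 encodes a cytoplasmic protein named for its induction by interferon. Its signals in the PVN were 38.0, 34.1, 47.4, 24.6 and 23.8 in SHR, against 65.9, 63.6, 71.7, 73.3 and 64.5 in WKY. Every SHR array was below every WKY array, and the WKY arrays lay close together. Ifi44 fell by 1.06 on the log2 scale (2.09-fold, SE 0.17, 95% interval -1.41 to -0.71, n = 5 and 5, limma adjusted p = 0.00139). It reached the filter through WKY only, its PVN SHR mean being 5.02, and with no filter on low signals the adjusted p was 0.0408. The call was made in 17 of 19 alternatives, and not by the methods' t-test (adjusted p = 0.165) or with a stricter filter, which Ifi44 did not reach.

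In the SON, Ifi44 had signals of 97.8, 75.6, 69.5 and 75.3 in SHR, against 137, 135, 92.6, 122 and 85.0 in WKY. The strains overlapped, through SON SHR array 1 and the lower WKY arrays, and the difference was -0.51, or -0.61 without SON SHR array 1. Whether the strain difference of Ifi44 is larger in one nucleus was not tested. Ifi44 was higher in the SON than in the PVN in both strains, by 1.28 in SHR (SE 0.20, adjusted p = 3.07e-04) and by 0.73 in WKY (SE 0.14, adjusted p = 0.00159). In SHR it reached the filter through the SON only, and with no filter the adjusted p was 0.00912 in SHR and 0.00976 in WKY. Its order was SON WKY, SON SHR, PVN WKY and PVN SHR, with overlap between the first pair of neighbours and between SON SHR and PVN WKY.

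Ifi44l, the paralog next to Ifi44 on chromosome 2, differed between SHR and WKY by -0.61 in the SON and by -0.62 in the PVN, with overlapping arrays in both nuclei and, in the PVN, a mean too low to be tested. Gipc2, 3 genes away, went the other way, with 0.70 in the SON and 0.44 in the PVN and no overlap in either. Marker genes of other cells had PVN strain medians of 0.01 for 8 tested endothelial genes, -0.13 for 10 microglial genes and -0.33 for 5 oligodendrocyte genes, and 0 of them passed in limma. Within groups, deviations of Ifi44 ran with those of the microglial mean (r = 0.63 over 19 arrays) and of the oligodendrocyte mean (r = 0.60). They ran less closely with those of endothelium (0.53), red cells (0.50), astrocytes (0.47) and neurones (0.46). For choroid plexus r was -0.36, for magnocellular neurones -0.27 and for lymphocytes -0.01. The part of these cells in the strain difference was not tested.

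Among the interferon probe sets tested between strains in the PVN, Ifi44 alone was called by limma. Of 11 probe sets, 9 reached the filter there, 0 were higher in SHR, 1 was lower and 8 did not pass. Over all 16135 probe sets tested in the PVN, 1.13% were called higher and 1.21% lower. Arrays of the strains did not overlap in 1 of the 11 probe sets, Ifi44, against 1.85% higher and 2.52% lower among all. The median difference of the 11 was 0.14, beside -0.04 over all tested.

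Usp18 and Ifitm3 came nearest of the rest. Usp18, a protease that strips Isg15 from proteins and blocks the interferon receptor, had signals of 104, 130, 136, 109 and 75 in PVN SHR, against 67.6, 101, 98.6, 94.0 and 60.4 in PVN WKY, a difference of 0.40 (95% interval 0.02 to 0.77, limma adjusted p = 0.347). Ifitm3, a membrane protein that stops viruses from leaving endosomes, had 173, 225, 228, 163 and 186 in PVN SHR, against 146, 161, 180, 153 and 157 in PVN WKY, a difference of 0.28 (0.03 to 0.53, limma adjusted p = 0.306). The strains overlapped for both genes, and neither passed, though these were the 2 member probe sets with an unadjusted p under 0.05 beside Ifi44.

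Of the transcription factors, Irf7 drives the synthesis of type I interferons, Irf1 carries much of the response to interferon gamma, and Stat2 is part of the complex, with Irf9, that binds the ISRE. Irf7 differed by 0.21 in the PVN (95% interval -0.11 to 0.52) and Irf1 by 0.09 (-0.20 to 0.38). Stat2 differed by -0.03 (-0.29 to 0.22) with the probe set 1389571_at. The other Stat2 probe set, 1373670_at, gave 0.40 with an interval of -0.87 to 1.67, because its PVN signals jumped between 10.4 and 76.5 within groups. The intervals of Irf7, Irf1 and Stat2 (1389571_at) reach as far as 0.52 above and 0.29 below 0.

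The Mx genes encode dynamin-like GTPases that trap viral particles. Mx1 averaged 5.11 ± 0.27 in PVN SHR and 5.11 ± 0.14 in PVN WKY (SD, n = 5 each), below the filter in both. The probe sets of Mx2 differed by 0.14 (1369202_at) and -0.13 (1387283_at) in the PVN, and neither passed. Mx1 and Mx2 lie close together on chromosome 11 with only Fam3b between them in the reference order, and the files do not say how far a probe set of one could bind the other.

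In the SON, where the strain differences are given as descriptions, Trim30d and Ifi44 were lower in SHR and the other 9 probe sets were higher on average. The differences were 0.66 for Ifitm3, 0.36 for Mx1, 0.28 for Usp18, 0.23 and 0.25 for Mx2, 0.12 and 0.46 for Stat2, and 0.02 each for Irf7 and Irf1. Trim30d alone had arrays that did not overlap, while 2.9% of all 16164 probe sets did not overlap with SHR higher and 6.95% with SHR lower. The rule had used this contrast, and nothing is read from the comparison.

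Ifitm3 showed the largest of the positive SON values, with signals of 882, 570, 569 and 428 in SHR, against 436, 353, 277, 433 and 406 in WKY. SON SHR array 4 lay within the WKY range and array 1 far above the rest. Mx1 had 111, 70.2, 71.4 and 57.8 in SON SHR, against 59.0, 69.0, 56.3, 53.7 and 56.3 in SON WKY, again with array 1 on its own. Without SON SHR array 1 the differences were 0.46 for Ifitm3, 0.17 for Mx1, 0.20 for Usp18, 0.13 and 0.08 for Mx2, 0.06 and 0.25 for Stat2 and -0.15 for Irf1. The SON strain difference was positive in 8 of 8 meningeal genes, with a median of 0.62 (0.41 without SON SHR array 1), in 2 of 3 genes of perivascular macrophages, with 0.58 (0.52), and in 8 of 11 microglial genes, with 0.18 (0.11), while endothelial genes had a median of -0.22 (-0.28). The part of these cells in these values was not tested.

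Irf1 was uneven in SON SHR. Its signals were 116, 86.9, 62.6 and 67.7 in SON SHR, against 76.9, 82.4, 83.1, 75.3 and 81.5 in SON WKY. The SHR arrays lay on both sides of the narrow WKY range, with SDs on the log2 scale of 0.40 in SHR and 0.06 in WKY. Other genes went either way. Mx1, Mx2, Usp18 and Ifitm3 also had the larger SD in SON SHR, while Trim30d, Ifi44, Irf7 and Stat2 had the larger in SON WKY. Irf7 was level in both strains, from 89.8 to 113 in SON SHR and from 82.3 to 122 in SON WKY.

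Of the tested comparisons, SON against PVN called the most of these probe sets. The comparison was made within each strain and on separate arrays for SHR and for WKY, though it shares those arrays with the strain comparisons. Its SON arrays are those of the strain contrast that led to all these genes. The p-values between the nuclei are therefore not independent of that choice. In SHR, 10 probe sets were tested, 6 were higher in the SON, 0 were lower and 4 did not pass, where 12.1% of all 16580 probe sets tested were higher and 13.5% lower. In WKY the numbers were also 6, 0 and 4 of 10, and no probe set was lower even before adjustment in either strain, where 15% of 16461 were higher and 15.4% lower. Of the 6, Ifi44 and Mx1 in SHR and Mx1 in WKY reached the filter through the SON alone, so the counts are not read as support. With no filter the probe sets higher in the SON numbered 4 in SHR, where Mx2 and Usp18 did not pass, and 5 in WKY, where Stat2 did not. The 6 were the same probe sets in both strains, those of Ifi44, Stat2 (1389571_at), Mx1, Mx2 (1369202_at), Usp18 and Ifitm3. The median of all 11 differences, Trim30d included, was 0.54 in SHR and 0.66 in WKY, beside -0.02 and -0.01 over all tested, and all 11 were above 0 in either strain. Arrays of the nuclei did not overlap in 7 of 11 in SHR and 6 of 11 in WKY, with the SON higher in each, against 10.6% higher and 12.8% lower of all in SHR and 11% higher and 11.3% lower in WKY. Trim30d, which was chosen directly on its SON arrays, is counted in each of these tallies over 11 probe sets. The other genes came from the same SON contrast, and nothing is read from the tallies.

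**Figure D3:**
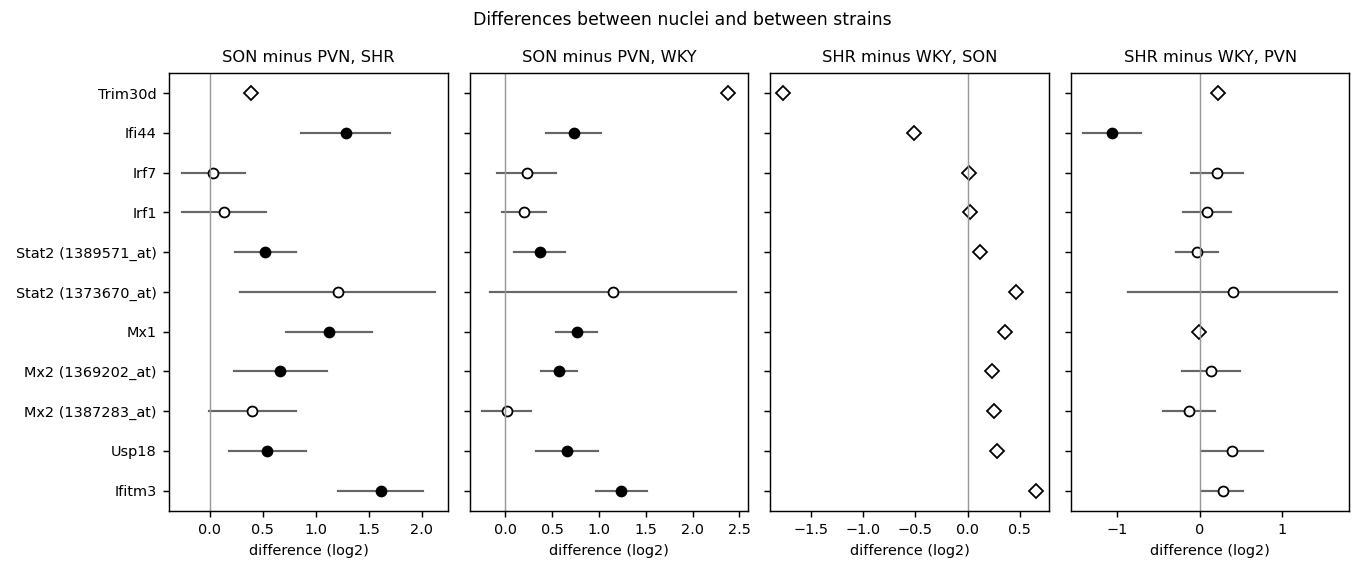
Log2 differences of the 11 probe sets for SON minus PVN in SHR and in WKY and for SHR minus WKY in the SON and in the PVN; bars are 95% intervals of limma, filled points passed, open circles did not, and diamonds had no test. Filled points number 6, 6 and 1 in the tested panels, and every SON minus PVN value is above 0.

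Ifitm3 had the largest excess in the SON among the tested genes, at 1.61 in SHR (3.06-fold, SE 0.19, 95% interval 1.21 to 2.02, adjusted p = 2.67e-05) and 1.24 in WKY (2.36-fold, SE 0.13, 0.97 to 1.51, adjusted p = 1.32e-05). The SON signals of 428 to 882 in SHR and 277 to 436 in WKY lay above all those of the PVN, which ran from 163 to 228 in SHR and from 146 to 180 in WKY. Its probe set carries the suffix _a_at, which marks probes shared by several transcripts of a gene. Ifitm1 and Ifitm2, beside it on chromosome 1, were higher in the SON as well, by 3.29 and 2.40 in SHR and by 2.80 and 1.96 in WKY.

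Mx1 was higher in the SON by 1.12 in SHR (SE 0.19, adjusted p = 6.59e-04) and by 0.76 in WKY (SE 0.10, adjusted p = 1.03e-04). It reached the filter through the SON only in both strains, and with no filter the adjusted p was 0.0129 in SHR and 7.76e-04 in WKY. Its PVN signals were 40.3, 30.8, 44.4, 29.0 and 30.9 in SHR and 33.9, 37.9, 29.9, 34.0 and 38.0 in WKY, all below the SON of either strain. Mx2 followed with its brighter probe set, 1369202_at, at 0.67 in SHR (adjusted p = 0.0273) and 0.58 in WKY (adjusted p = 4.00e-04). The second probe set, 1387283_at, did not pass, with 0.40 in SHR (95% interval -0.01 to 0.81) and 0.02 in WKY (-0.24 to 0.28), so the Mx2 result rests on 1 of its probe sets.

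Usp18 was higher in the SON by 0.54 in SHR (SE 0.17, adjusted p = 0.0299) and by 0.66 in WKY (SE 0.15, adjusted p = 0.00586). In SHR the call of Mx2 was lost without SON SHR array 1 or 2 or PVN SHR array 5, and that of Usp18 without SON SHR array 1, 2 or 4 or PVN SHR array 5, and both were lost with no filter. Both were also lost by the methods' t-test (adjusted p = 0.0950 for Mx2 and 0.0835 for Usp18), and Usp18 with the replicate block. Over all alternatives the adjusted p in SHR ranged from 0.00441 to 0.111 for Mx2 and from 0.0130 to 0.0956 for Usp18. Stat2 was higher with 1389571_at by 0.52 in SHR (adjusted p = 0.0109) and 0.37 in WKY (adjusted p = 0.0425), and the WKY call was lost on leaving out any of 8 of the 10 arrays in turn (adjusted p from 0.0128 to 0.106 over all alternatives). The methods' t-test did not make that WKY call either (adjusted p = 0.0919). Stat2 with 1373670_at differed by 1.21 in SHR (adjusted p = 0.0529, though it passed without PVN SHR array 1 or 5) and 1.15 in WKY (adjusted p = 0.170).

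Irf7 and Irf1 did not pass in either strain. Irf7 differed between the nuclei by 0.03 in SHR (95% interval -0.26 to 0.33) and 0.23 in WKY (-0.09 to 0.54), and Irf1 by 0.13 (-0.26 to 0.53) and 0.20 (-0.03 to 0.44). The group means of Irf7 lay between 6.44 and 6.68, and the intervals leave room for a difference. Irf7, Irf1, Usp18, Ifitm3, Mx2 (1369202_at) and Stat2 (1373670_at) shared the order SON SHR, SON WKY, PVN SHR and PVN WKY. The strains overlapped within each nucleus for all 6, and SON WKY lay wholly above PVN SHR for Ifitm3 alone. The genes most like Irf7 over the arrays were Creld1 (r = 0.748), Prkag1 (0.745), Txn2 (0.726), Ripor2 (0.712) and Wdr43 (0.695), whose group means also lay close together.

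Markers of some other cells moved with this contrast. All 8 meningeal genes were higher in the SON in both strains (median 3.61 in SHR and 3.11 in WKY), as were 3 of 3 tested genes of perivascular macrophages (1.21 and 0.92). Of the endothelial genes, 4 of 9 tested were higher in SHR and 6 of 8 in WKY (medians 0.31 and 0.60). Of the astrocyte genes, 3 of 5 tested were higher in each strain and 1 was lower in WKY (0.78 and 0.58), and the red cell genes tested, 2 in SHR and 1 in WKY, were all higher (0.96 and 0.67). Of 5 oligodendrocyte genes, 2 were higher in SHR, and 0 were higher and 1 lower in WKY (0.45 and 0.10). Of the microglial genes, 2 were higher and 1 lower of 11 in SHR, and 0 were higher and 3 lower of 10 in WKY (0.10 and -0.20). For choroid plexus 0 were higher and 1 lower of 2 in each strain (-0.45 and -0.60). For neurones at large 0 were higher and 1 lower, of 6 in SHR and of 5 in WKY (-0.15 and -0.03). Of 3 magnocellular genes, 1 was higher in each strain (0.24 and 0.06). Within groups, the deviations of Ifitm3 ran with those of the endothelial mean (r = 0.80 over 19 arrays, 0.71 without SON SHR array 1). They also ran with those of meninges (0.70 and 0.56) and microglia (0.59 and 0.54). For the other lists r with Ifitm3 lay between 0.04 and 0.37. Deviations of Irf7 did not run with those of endothelium or meninges (-0.09 and -0.11). They ran with those of neurones (0.48), red cells (0.46) and oligodendrocytes (0.41), and r lay between -0.11 and 0.11 for the rest. The part of these cells in the nucleus differences was not tested.

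The rest of the pathway was read from lists of 118 other genes, of which 88 were measured. In the PVN strain comparison 53 were tested and limma called 0 higher and 0 lower, while before adjustment 5 were higher and 2 lower at p under 0.05, and 0 passed in either direction by the methods' t-test. There were 2 higher with values as deposited, and 1 with all 4 groups in 1 fit or without PVN SHR array 4. The nearest was Sp110, an interferon-induced nuclear body protein, with 0.53 (adjusted p = 0.0965). The median was 0.05, beside -0.04 over all tested.

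Between the nuclei, 18 of 57 tested genes were higher in the SON and 5 lower in SHR, and 17 of 57 were higher and 5 lower in WKY, beside the 12.1% higher and 13.5% lower of all tested in SHR and the 15% and 15.4% in WKY. Of the higher genes, 4 in each strain reached the filter through the SON alone, and with no filter the numbers higher were again 18 and 17. The higher genes shared by the strains numbered 13, which is 13 of 18 and 13 of 17. Most lay among the antiviral effectors, with 16 higher and 3 lower of 32 in SHR and 15 higher and 3 lower of 31 in WKY, and medians of 0.43 and 0.35. Besides Ifitm1 and Ifitm2, Gbp2, a guanylate-binding protein that attacks intracellular pathogens, was higher by 1.26 in SHR and 1.24 in WKY, and Isg15, the ubiquitin-like modifier that Usp18 removes, by 1.19 and 0.75. Cmpk2, a mitochondrial nucleotide kinase, was lower by 0.88 and 0.57 on the log2 scale.

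Of 5 tested ligands and receptors, 3 sensors and adaptors and 2 negative regulators, 0 passed in either strain by limma, while before adjustment 2 were higher in SHR and 1 in WKY at p under 0.05. Among kinases and transcription factors 0 of 6 passed in SHR (2 higher before adjustment), and in WKY 2 of 7 did, Irf9 higher by 0.33 (adjusted p = 0.0122) and Irf8, a factor of myeloid cells, with -0.56 (adjusted p = 0.00261). In the Trim family, 2 were higher and 2 lower of 9 in SHR, and 1 higher and 1 lower of 9 in WKY. Trim34, a neighbour of Trim30d, was higher in the SON by 0.79 in SHR and 0.50 in WKY, and Trim8, a regulator of cytokine signalling, differed by -0.57 and -0.55. Trim39 passed in SHR only, with -0.60, against -0.30 in WKY.

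**Figure D4:**
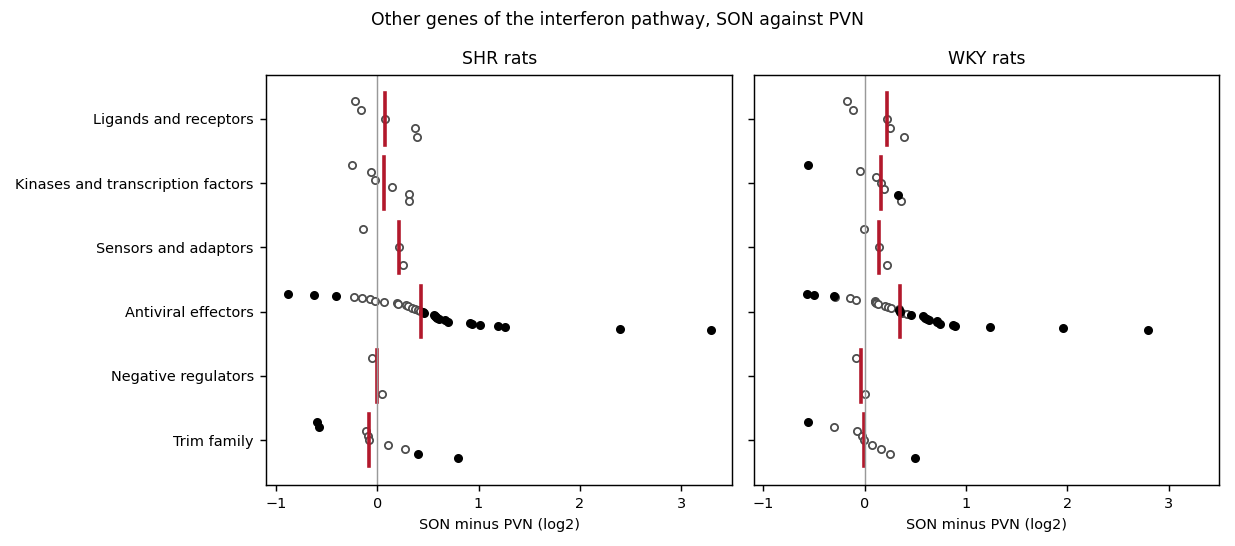
SON minus PVN log2 differences of the other interferon pathway genes, by list, in SHR and in WKY; each point is a tested gene (filled if it passed in limma) and red lines are list medians. Antiviral effectors have medians of 0.43 in SHR and 0.35 in WKY, and their 2 highest points, Ifitm1 and Ifitm2, lie at 1.96 or above.

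Within groups the genes varied together in part. Over 36 pairs of genes, the correlation of deviations from group means across the 19 arrays had a median of 0.28 and was above 0 for 29 pairs, and the median was 0.23 without SON SHR array 1. The closest pair was Ifi44 and Mx2 (r = 0.83, from 0.80 to 0.86 with any array left out), followed by Ifi44 with Mx1 (0.62) and with Usp18 (0.58). Correlations of Trim30d lay between -0.18 (Usp18) and 0.30 (Mx1), with 0.01 for Ifi44, and those of Irf1 between -0.18 (Irf7) and 0.32 (Ifitm3), with -0.04 for Ifi44. Mx1 and Ifitm3 correlated at 0.53, but at 0.29 without SON SHR array 1. The points share their arrays and so their RNA quality and cell makeup, and the values are descriptions.

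**Figure D5:**
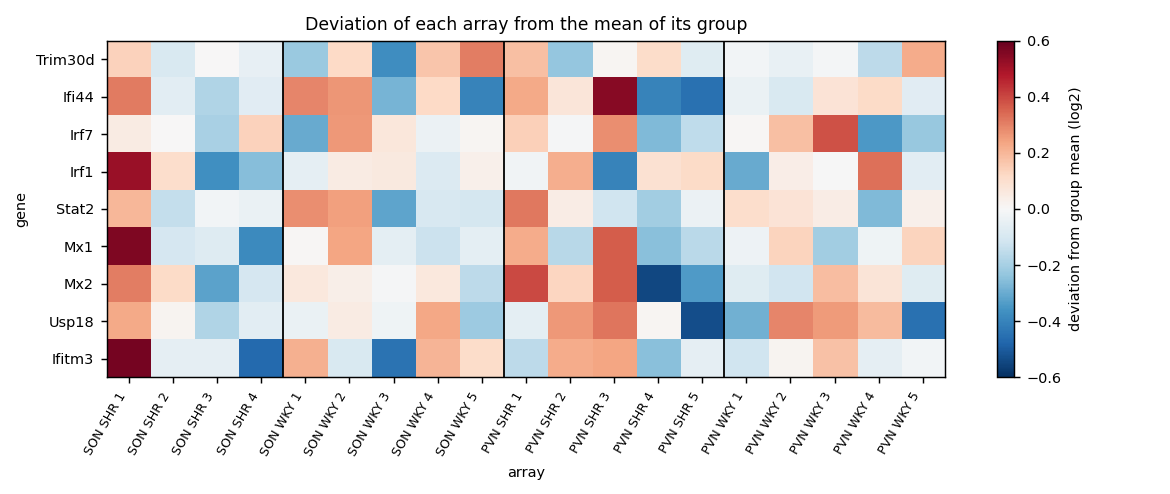
Deviation of each array (columns, by group) from its group's mean log2 signal for each gene (rows), with red above and blue below the mean and the colour scale ending at 0.6. SON SHR array 1 is the reddest column, with its group's highest signal in 10 of 11 probe sets, and PVN SHR array 3 is red for Ifi44, Mx1 and Mx2 where array 4 is blue.

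In PVN SHR, array 3 had the highest signal in 6 of the 11 probe sets and array 4 the lowest in 6. For Mx2 (1369202_at) this meant 220, 183, 215, 115 and 132 in PVN SHR, against 144, 140, 173, 160 and 144 in PVN WKY. The SHR arrays straddled the WKY range on both sides. Array 4 also correlated least with its group (mean r 0.947).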

How the data were processed

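Total RNA of the SON and PVN was amplified in 1 linear round, labelled with biotin and hybridised to Affymetrix rat genome arrays. The deposited values are intensities, which the authors computed with MAS 5.0 (version not given in the sources used here) as linear signals scaled per array. The 57 control probe sets were left out. Arrays were scaled to a common median, values under the 10th percentile (signal 3.77) were raised to it, and log2 was taken. A probe set was tested where the mean of at least 1 of the compared groups was at least 5.32 on the log2 scale (the median over probe sets of their means), in place of the present calls of the methods. Groups were compared in separate fits with lmFit and eBayes of limma 3.58.1, under R 4.3.3 (two-sided, Benjamini-Hochberg over all tested probe sets, adjusted p under 0.05, no fold limit). Intervals are 95% intervals of that fit, and the number of arrays limits precision. The procedure was tested on simulated data.

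Platform annotation gave 1 symbol for 20826 probe sets, several for 436 and none for 9780. A gene with several probe sets stands, in lists and correlations, for the one with the highest mean. From each pathway list, up to 3 genes that passed were named by size of difference, and Isg15 and Cmpk2 were named beyond these. Sp110, Ifi44l, Gipc2 and other neighbours were chosen after their values were seen. The members and all lists were chosen with earlier results of these data known. Promoters are those of RefSeq on GRCr8. Alternatives were quantile normalisation, values as deposited, no or a stricter filter (75th percentile), a pseudocount of 16, all 4 groups in 1 fit, a replicate block, the methods' t-test, a 2-fold limit and each array left out. The labels and files gave no batch. Array numbers were not used to pair the samples in the main fits, and the labels do not say whether they do. Correlations of deviations between same-numbered arrays cannot settle it. They ranged from -0.226 to 0.0799 between strains in the PVN and from -0.00909 to -0.00113 between nuclei in WKY. Between the nuclei of SHR they were 0.174, 0.103, 0.0351 and 0.0871, so those arrays may not be independent. Between the strains in the SON, whose arrays cannot share rats, they were 0.104, 0.0303, -0.0144 and 0.0851. Figures were drawn with matplotlib 3.10.9. Detection calls, the fifth SON SHR array of the study and its other experiments were not used here.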

Additional observations from a re-analysis of the deposited data

Results flagged for a closer look

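In each group of 4 or 5 arrays, the highest or lowest array was set against the others by its gap to the nearest one as a share of the range, both on the log2 scale, for 44 combinations of probe set and group. There were 2 in which that share passed the 95% limit for the group size, and chance alone brings about 5% of groups past such a limit. Stat2 (1389571_at) had a signal of 63.1 in PVN WKY array 4, and the other 4 arrays lay between 77.4 and 81.4. Stat2 (1373670_at) had a signal of 11.4 in PVN SHR array 5, and the other 4 arrays lay between 48.5 and 71.1.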

How the results depend on the processing

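Among the tested differences of single genes, sign turned 14 times under an alternative, each time for a difference that had not passed. Stat2 (1389571_at) in the PVN was 0.0039 with values as deposited and -0.11 to 0.019 with an array left out, and Stat2 (1373670_at) -0.011 to 0.88. Mx2 (1387283_at) was -0.049 to 0.10 between the nuclei of WKY, and in SHR Irf7 was -0.032 to 0.10 and Irf1 -0.042 to 0.25. Of the untested differences, Mx1 in the PVN (-0.09 to 0.06) and Irf7 (-0.06 to 0.08) and Irf1 (-0.15 to 0.14) in the SON also crossed 0, and that of Trim30d in the SON stayed between -1.86 and -1.48.

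Over all probe sets, the PVN strain comparison called 378, but 604 with values as deposited, 241 without the filter, 202 with the stricter filter, 118 with the methods' t-test (Benjamini-Hochberg), 101 with a 2-fold limit, and 271 (without PVN WKY array 2) to 726 (without PVN SHR array 1) with an array left out. The count of interferon probe sets lower there was 1, and 0 with the stricter filter, which tests fewer probe sets and left out Ifi44, and with the t-test. SON against PVN in SHR called 4246, with 2678 under the stricter filter, 2758 by the t-test and 944 with the 2-fold limit, and in WKY 5002, with 767 at 2-fold. The 6 interferon probe sets higher in the SON became 3 under the stricter filter in each strain, and with the 2-fold limit 3 in SHR and 1 in WKY. They were 4 (without SON SHR array 1) to 7 in SHR and 5 to 6 in WKY with an array left out. Other pathway genes higher in the SON, 18 in SHR and 17 in WKY, were 5 and 3 at 2-fold, and 9 in WKY with the stricter filter. Those lower, 5 in each strain, were 0 at 2-fold, 3 in each with the stricter filter, and 3 in WKY without the filter, with the block, by the t-test and without PVN WKY array 2, 3 or 5. In the SON the strain comparison called 586, with 291 without the filter, 177 by the t-test, 124 at 2-fold and 322 (without SON SHR array 3) to 726 (without SON WKY array 3) with an array left out. Where no construction shows it, the cause was not tested.

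With the replicate block, calls were 331 in the PVN, 4030 between the nuclei in SHR, 4168 in WKY and 342 between strains in the SON. In SHR the block used 4 pairs, Usp18 did not pass (0.41, adjusted p = 0.0771), Stat2 (1373670_at) did (0.73, adjusted p = 0.00571) and Irf7 was -0.0037. In SHR arrays 1 to 4 the correlations were all above 0, which is a hint from the data and not the design. Values of up to 0.104 were also found between the strains in the SON, whose arrays cannot share rats.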
